A study of Mus musculus with 3 samples.

Results

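The centromere-proximal ends of the 19 mouse autosomes were examined here. Each end was taken as the 30 non-overlapping windows of 100 kb from 3 to 6 Mb of the mm10 genome build, which are the windows next to the centromere in this assembly. Of these 570 windows, 543 had at least 100 methylation calls in every library and were kept as proximal windows, out of 23820 autosomal windows with that many calls. The 23277 remaining windows served for comparison.

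The study asked how loss of *Pld6* or *Dnmt3l* affects DNA methylation in male germ cells. Genomic DNA of spermatogonia from C57BL6/J mice at postnatal day 7 was sequenced after bisulfite treatment. The cells came from WT, Pld6 KO and Dnmt3L KO males and had been sorted with an antibody to the surface protein EpCAM. The study mentions biological replicates for each genotype, but 1 library per genotype was analysed here, and whether it is one of them or a pool is not given in the sources used here, so that no spread between animals can be given, and what separates the genotypes cannot be told apart from what separates single libraries. Both mutant lines had been backcrossed to this strain. The study counted heterozygous mice among its wild types, and the labels do not say from which kind of mouse the WT library came.

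All mouse autosomes are telocentric: the centromere sits at one end, and the assembly opens each chromosome with a block of unsequenced bases that stands for it. Centromeric and pericentromeric DNA consists of satellite repeats, tandem copies of a short unit that are packaged as constitutive heterochromatin. In the male germ line most DNA methylation is erased in primordial germ cells and laid down anew in prospermatogonia before birth. DNMT3L, a catalytically inactive partner of the *de novo* methyltransferases, is required for this step. *Pld6* encodes a mitochondrial protein of the piRNA pathway, through which small RNAs direct *de novo* methylation to certain retrotransposons.

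A few sequences drew a large share of the calls of their windows, and they are shown first. In each, the CpG sites are in capitals, and all are on the plus strand of mm10. The first is 1 unit of the tandem repeat that opens chromosome 9 (chr9:3028681-3028914), centred on the second of the 3 CpG sites with the most WT calls. The second is a related stretch on chromosome 12 (chr12:3109873-3110128). The third and the fourth are CpG-dense stretches on chromosome 3 (chr3:5860609-5860775) and chromosome 6 (chr6:3201412-3201568), and the fifth lies on chromosome 2 (chr2:5379292-5379365).
chr9 repeat unit: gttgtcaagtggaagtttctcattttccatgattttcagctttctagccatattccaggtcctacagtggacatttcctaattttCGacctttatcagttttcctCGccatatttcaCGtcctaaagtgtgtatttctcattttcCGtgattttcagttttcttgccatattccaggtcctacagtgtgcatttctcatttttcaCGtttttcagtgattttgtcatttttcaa
chr12 stretch: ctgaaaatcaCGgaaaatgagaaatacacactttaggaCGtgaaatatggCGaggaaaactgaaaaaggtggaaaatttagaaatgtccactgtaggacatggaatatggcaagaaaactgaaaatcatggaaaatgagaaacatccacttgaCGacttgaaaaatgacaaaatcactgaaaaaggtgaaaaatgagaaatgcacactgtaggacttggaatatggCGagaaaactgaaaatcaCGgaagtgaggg
chr3 stretch: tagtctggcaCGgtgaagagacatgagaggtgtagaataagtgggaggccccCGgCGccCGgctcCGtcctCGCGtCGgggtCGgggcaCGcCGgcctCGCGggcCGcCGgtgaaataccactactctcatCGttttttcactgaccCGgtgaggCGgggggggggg
chr6 stretch: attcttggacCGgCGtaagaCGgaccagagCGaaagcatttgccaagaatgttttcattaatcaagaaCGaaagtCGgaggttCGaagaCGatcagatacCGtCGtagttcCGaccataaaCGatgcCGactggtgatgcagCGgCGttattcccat
chr2 stretch: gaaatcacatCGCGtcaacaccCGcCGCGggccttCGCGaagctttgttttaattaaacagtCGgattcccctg
The chromosome 9 unit is 234 bases long and holds 5 CpG sites. The chromosome 3 stretch packs 18 CpG sites into 167 bases, and the chromosome 6 stretch 15 sites into 157 bases.

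The libraries were read first as a check of their labels. Pld6 KO had 0 calls over a run of 66 CpG sites at *Pld6*, a run with 163 WT calls. Dnmt3L KO likewise had 0 calls over 53 sites at *Dnmt3l*, against 88 in WT. Around the start of *Kcnq1ot1*, an imprinted gene that is methylated on the maternal copy and so unmethylated in male germ cells, the level was 0.078 for WT, 0.070 for Pld6 KO and 0.0154 for Dnmt3L KO. The paternally methylated region 2 to 4 kb upstream of *H19* stood at 0.859 in WT and 0.884 in Pld6 KO, and at 0.148 in Dnmt3L KO. Sequencing depth was unequal, with 43757722 calls for WT, 64076569 for Pld6 KO and 19289688 for Dnmt3L KO.

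In all 3 libraries the proximal windows were less methylated than the rest of the autosomes. A methylation level is the number of methylated calls divided by all calls of a window. The median level of the proximal windows was 0.724 in WT, against 0.764 in the other autosomal windows. It was 0.717 against 0.763 in Pld6 KO, and 0.237 against 0.275 in Dnmt3L KO. The windows varied widely around these medians: WT ranged from 0.163 to 0.924, Pld6 KO from 0.176 to 0.909 and Dnmt3L KO from 0.0286 to 0.554. The median number of calls per proximal window was 1308 for WT, 1843 for Pld6 KO and 606 for Dnmt3L KO, which gives a 95% Wilson interval of about 0.0231, 0.0193 and 0.0323 on either side of the level. These intervals cover counting error only, and since calls of the same read are linked they can be too narrow.

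Because the methylation level depends on CpG density, each proximal window was next set against windows of its own chromosome, outside the proximal 3 Mb, whose CpG density lay within 10% of its own, here called like-density windows. At least 10 such windows were found for 540 of the 543. The level of a proximal window minus the median of its like-density windows had a median of -0.049 for WT, -0.0516 for Pld6 KO and -0.0265 for Dnmt3L KO. The level was below the like-density median in 347 of 540 windows in WT (64.3%), where 50.6% of all autosomal windows lay below theirs. In Pld6 KO this held for 364 windows (67.4%, against 50.6% of all), and in Dnmt3L KO for 326 (60.4%, against 50.1% of all). In 268 windows (49.6%) the level was below in every library, as it was in 35.4% of all windows.

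Larger deficits were more frequent too. The WT level was at least 0.1 below the like-density median in 175 proximal windows (32.4%), against 19% of all autosomal windows, and at least 0.1 above it in 41 (7.59%, against 11.3%). In Pld6 KO, 183 windows (33.9%) were that far below, against 18.6%, and 29 (5.37%) that far above, against 9.01%. The corresponding numbers in Dnmt3L KO were 135 windows below (25%, against 12.5%) and 58 above (10.7%, against 15.4%). In 90 windows (16.7%) all 3 levels were at least 0.1 below, against 7.21% of all windows.

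The share of soft-masked bases, which marks annotated repeats in the reference, moved with these values. It was 36.9% in the median proximal window and 31.5% in the other windows, while the CpG density was nearly the same (7.66 and 7.82 sites per kb). When like-density windows also had to lie within 5 percentage points of the soft-masked share, a comparison chosen after seeing the data, 477 proximal windows could be compared. The median difference was then -0.0167 for WT, -0.0157 for Pld6 KO and 0.0014 for Dnmt3L KO, so that the deficit shrank in WT and Pld6 KO and the sign turned in Dnmt3L KO. Without the CpG sites of promoters, the medians were -0.0275, -0.0314 and -0.0208. The other chromosome end was compared with CpG density alone matched. There the 543 windows of the last 3 Mb of the autosomes had median differences of -0.0296 for WT, -0.0239 for Pld6 KO and 0.00699 for Dnmt3L KO. These deficits were smaller than the proximal ones at the same matching, but in WT and Pld6 KO larger than those with the soft-masked share matched. The soft-masked share was 30% in the median distal window, and it was not matched there.

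The deficit was deepest nearest to the centromere. In WT the median level was 0.665 in the first 0.5 Mb (89 windows) and 0.713, 0.729, 0.707, 0.769 and 0.747 in the following bins of 0.5 Mb. In Pld6 KO it was 0.645 in the first bin and between 0.717 and 0.757 in the others. Dnmt3L KO had 0.207 in the first bin and between 0.230 and 0.250 afterwards. The first bin thus had the lowest median in each library, and the later bins showed no steady order.

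**Figure D1:**
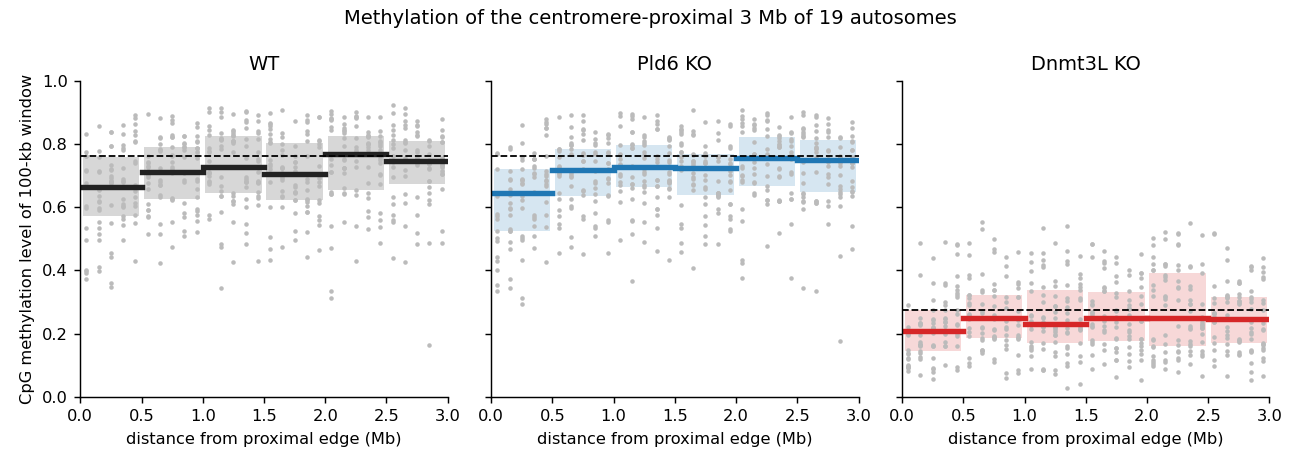
Methylation level of the 543 proximal windows (grey points, 1 per 100-kb window) against the distance in Mb from the proximal edge of the 3-Mb region, for WT, Pld6 KO and Dnmt3L KO. Coloured bars are medians and shaded boxes quartiles of 0.5-Mb bins, and the dashed line is the median of the other autosomal windows. The first bin has the lowest median in each library: 0.665, 0.645 and 0.207.

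Against like-density windows, the first 0.5 Mb lay lower by a median of -0.103 for WT, -0.143 for Pld6 KO and -0.0843 for Dnmt3L KO. From 2 to 2.5 Mb the same medians were 0.00324, -0.0224 and -0.00427. In the first bin 80.9% of the windows were below the like-density median in WT, and this share was 85.4% for Pld6 KO and 76.4% for Dnmt3L KO. With the soft-masked share matched as well, 64 windows of the first bin could be compared and the medians were -0.0556 for WT, -0.0684 for Pld6 KO and -0.0101 for Dnmt3L KO. The soft-masked share itself was highest in the first bin, at 43.5% in the median window, and between 33.3% and 37.3% in the others. Its part in the low levels was not tested beyond this matching.

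Over the 543 windows, the rank correlation of the level with the distance from the proximal edge was 0.178 for WT, 0.212 for Pld6 KO and 0.0826 for Dnmt3L KO (Spearman, across windows of 19 chromosomes, given as a description). With the soft-masked share the rank correlation was -0.226 for WT, -0.441 for Pld6 KO and -0.757 for Dnmt3L KO. In the other autosomal windows the latter values were -0.211, -0.379 and -0.682. Neighbouring windows share a chromosome and all values share the same reads of a library, so that the windows are not independent.

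The first measured window of each autosome stood lower still. It is the window from 3 to 3.1 Mb, except on chromosomes 10, 11 and 16, where it is the following one. Over the 19 first windows WT had a median level of 0.618, Pld6 KO of 0.562 and Dnmt3L KO of 0.138, and the median difference from like-density windows was -0.132, -0.212 and -0.147. In WT 18 of the 19 lay below their like-density windows, as did 18 for Pld6 KO and 17 for Dnmt3L KO. The background for these counts is the 50.6%, 50.6% and 50.1% given above. The WT level exceeded the Pld6 KO level by a median of 0.054 in the first windows, against 0.000598 in the later ones. Without the first windows, the median differences of the remaining proximal windows from like-density windows were -0.0416, -0.0465 and -0.0223. The median soft-masked share was 48.4% in the first windows and 36.1% in the remaining ones, and it was not matched in these comparisons.

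Among the first windows, WT levels were lowest on chromosomes 4, 9, 3 and 17. On chromosome 4 the level was 0.372 for WT (95% interval 0.349 to 0.394), 0.354 for Pld6 KO (0.335 to 0.374) and 0.0823 for Dnmt3L KO (0.0653 to 0.103). Chromosome 3 had 0.397, 0.335 and 0.119, and chromosome 17 had 0.400, 0.401 and 0.0957. At the other extreme, chromosome 13 opened with 0.831 for WT (0.808 to 0.853), 0.768 for Pld6 KO (0.747 to 0.788) and 0.148 for Dnmt3L KO (0.120 to 0.181). The first windows of chromosomes 7 and 8 were near their like-density windows in WT, with levels of 0.775 and 0.761 and differences of -0.0164 and -0.00529. Several first windows had a lower level in Pld6 KO than in WT: on chromosome 5 the levels were 0.677 in WT and 0.504 in Pld6 KO, and on chromosome 1 they were 0.763 and 0.636. Chromosome 9 went the other way, with 0.392 in WT and 0.430 in Pld6 KO.

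**Figure D2:**
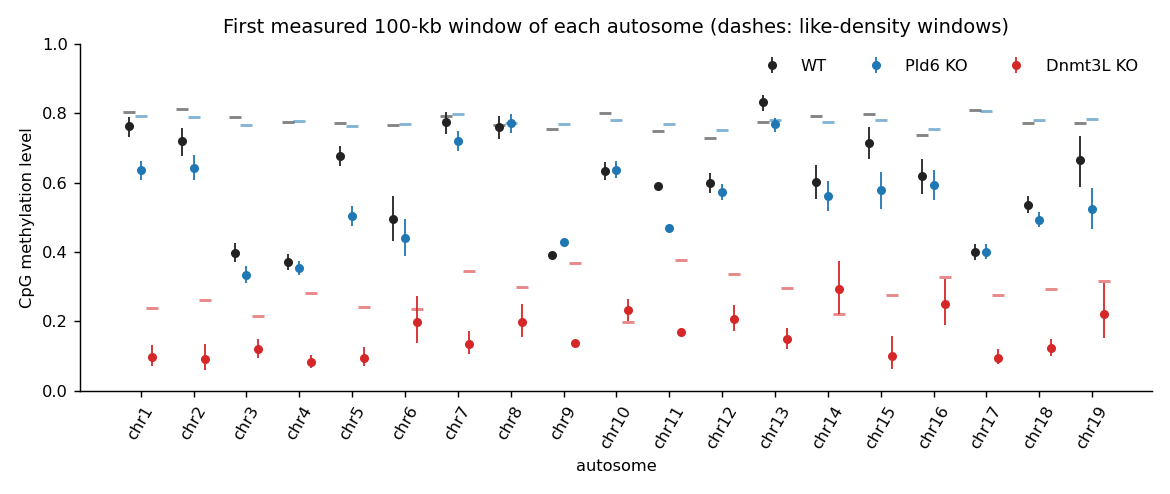
Methylation level of the first measured 100-kb window of the 19 autosomes in WT, Pld6 KO and Dnmt3L KO (points, with 95% Wilson intervals of counting error). The short dashes are the medians of the like-density windows of the same chromosome. In WT the point of chromosome 13 lies above its dash and the points of the other 18 autosomes lie below theirs, with 0.372 on chromosome 4 as the lowest level.

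The medians of the 19 autosomes spread more widely than those of the distance bins. Each autosome had 8 to 30 windows, however, and each bin 89 to 93. Medians of smaller groups vary more by sampling, and its part in the wider spread was not tested. The median difference from like-density windows was below 0 on 16 of 19 autosomes in WT, on 16 in Pld6 KO and on 12 in Dnmt3L KO. All 3 libraries were below 0 on 12 autosomes. In WT chromosome 14 was lowest, with -0.164 for WT, -0.215 for Pld6 KO and -0.128 for Dnmt3L KO, from its 8 measured windows. In the order of WT, chromosome 7 followed with -0.163, -0.171 and -0.116, and then chromosome 3 with -0.122, -0.181 and -0.105, while in Pld6 KO chromosome 3 was lower than chromosome 7. Chromosome 17 was highest, at 0.056, 0.0647 and 0.064. Leaving out any 1 autosome kept the median over the remaining windows between -0.0538 and -0.0397 in WT, between -0.0573 and -0.0457 in Pld6 KO, and between -0.0302 and -0.0207 in Dnmt3L KO.

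**Figure D3:**
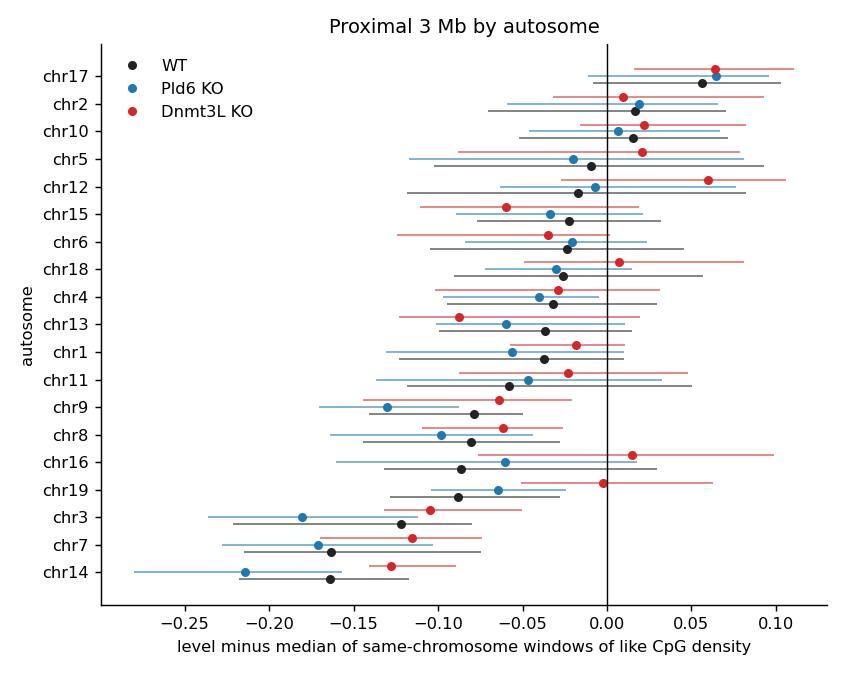
Level of the proximal windows minus the median of like-density windows of the same chromosome, as the median (point) and the quartiles (line) over the proximal windows of each autosome, in WT, Pld6 KO and Dnmt3L KO. Autosomes are ordered by the WT median, from chromosome 14 at -0.164 to chromosome 17 at 0.056.

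The soft-masked share was high on the autosomes with the lowest values and low on that with the highest, but did not follow the order throughout. It was 61.8% in the median proximal window of chromosome 14, 55.9% on chromosome 3 and 47% on chromosome 7, and 26.3% on chromosome 17. On chromosome 11 it was 29.1% with a WT difference of -0.0581. With soft-masked shares of 32.7% and 29.6%, the WT difference of chromosomes 16 and 19 was -0.0866 and -0.0883, while in Dnmt3L KO it was 0.0151 and -0.00229. WT and Dnmt3L KO therefore stood closer together there than in like-density windows, by a median of -0.072 on chromosome 16 and -0.0582 on chromosome 19.

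The Dnmt3L KO library was less methylated than WT along the whole of these ends. The difference of WT from Dnmt3L KO had a median of 0.458 over the proximal windows, against 0.469 in the other windows, and was positive in each of the 543, from 0.109 to 0.766. It was at least 0.3 in 471 windows (86.7%), against 90% of all autosomal windows. This share is close to the background and slightly below it. Against like-density windows the difference was smaller by a median of -0.0161, and by -0.0042 without promoter sites. Of the 72 windows that stayed under 0.3, 21 lay on chromosome 19 and 12 on chromosome 11, and their median CpG density was 12 sites per kb. Of all 543 proximal windows, 30 lay on chromosome 19 and 29 on chromosome 11. A protein-coding gene was present in 65 of the 72, and in 358 of all 543 proximal windows.

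Of the 5 windows with the largest differences between WT and Dnmt3L KO, 4 held no protein-coding gene, as did 185 of all 543 proximal windows. In each of the 5 over 50% of the bases were soft-masked, against 36.9% in the median proximal window. On chromosome 15 from 3.8 to 3.9 Mb, the level was 0.826 for WT (95% interval 0.797 to 0.852), 0.641 for Pld6 KO (0.610 to 0.670) and 0.0602 for Dnmt3L KO (0.0408 to 0.0879), and 68.6% of its bases were soft-masked. Chromosome 4 from 5 to 5.1 Mb had 0.845, 0.757 and 0.102. Chromosome 13 from 5.1 to 5.2 Mb had 0.820, 0.677 and 0.110, and chromosome 4 from 3.3 to 3.4 Mb had 0.860, 0.730 and 0.161. That Dnmt3L KO was far below WT in these 4 windows follows from how they were picked, and this choice also favours high WT levels. Pld6 KO lay between the other libraries but much nearer to WT.

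Several of the smallest differences came from CpG-dense windows with genes that were low in WT already. On chromosome 7 from 5 to 5.1 Mb, which holds *U2af2*, a splicing factor gene, and *Epn1*, an endocytic adaptor gene, the level was 0.314 for WT, 0.375 for Pld6 KO and 0.156 for Dnmt3L KO. On chromosome 19 from 5 to 5.1 Mb, which holds *Slc29a2*, a nucleoside transporter gene, and *Rin1*, the levels were 0.336, 0.433 and 0.162. The like-density windows of these had WT medians of 0.453 and 0.421. The smallest difference of all, 0.109 on chromosome 3 from 5.8 to 5.9 Mb, lay in the gene-free window of the CpG-dense stretch printed above, with 84.3% of its WT calls at sites with at least 21 calls.

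The 5 windows with the highest level in Dnmt3L KO all overlapped protein-coding genes, as did 358 of all 543 proximal windows. The highest level was 0.554 (95% interval 0.528 to 0.580) on chromosome 19 from 3.6 to 3.7 Mb, within *Lrp5*, which encodes a co-receptor of Wnt signalling. WT and Pld6 KO had 0.822 each in that window. It was followed by 0.552 in the window of *Znrf3*, which encodes a ubiquitin ligase that limits Wnt receptors, on chromosome 11, and by 0.540 in that of *Adcy9*, an adenylate cyclase gene, on chromosome 16. The window of *Crebbp*, which encodes a histone acetyltransferase, had 0.535 in Dnmt3L KO against 0.188 in its like-density windows, with 0.903 in WT and 0.889 in Pld6 KO. *Dtnb* on chromosome 12 had 0.531. At the low end, a window of chromosome 14 from 4.3 to 4.4 Mb had 0.0286 in Dnmt3L KO (0.0112 to 0.0712), from 140 calls, and a gene-free window of chromosome 3 from 4.4 to 4.5 Mb had 0.0395 (0.0216 to 0.0712).

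Windows with and without genes differed in this respect at the chromosome ends as elsewhere. The median Dnmt3L KO level was 0.274 in the 358 proximal windows that overlapped a protein-coding gene and 0.182 in the 185 that did not. In the other autosomal windows these medians were 0.310 and 0.213. In WT the order was the opposite, with 0.706 in proximal windows with a gene and 0.757 in those without. Pld6 KO had 0.712 and 0.732.

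Windows that were highest in WT relative to like-density windows also lay in genes. On chromosome 10 from 4 to 4.1 Mb, in *Mthfd1l*, a gene of mitochondrial folate metabolism, WT had 0.900, Pld6 KO 0.890 and Dnmt3L KO 0.456, against like-density medians of 0.726, 0.747 and 0.306. On chromosome 2 from 5.5 to 5.6 Mb, in *Camk1d*, a calcium-dependent kinase gene, the levels were 0.924, 0.901 and 0.519. The window of *Arid1b*, which encodes a subunit of the SWI/SNF chromatin remodeller, on chromosome 17 from 5.2 to 5.3 Mb had 0.882, 0.894 and 0.519. In each of these windows WT and Pld6 KO differed by at most 0.0224.

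In the Pld6 KO library the level of most proximal windows was near that of WT. The difference of WT from Pld6 KO had a median of 0.00177 over the proximal windows, against -0.00322 in the others, and a median of 0.00282 against like-density windows. It was at least 0.1 in 31 proximal windows (5.71%), against 2.8% of all autosomal windows, and at most -0.1 in 2 (0.368%), against 0.424%. Of the 31 windows, 26 had fewer than 500 calls in at least 1 library, while 334 of all 543 proximal windows had 500 or more in each. When every library had to have 500 calls or more, the share was 1.5% (5 of 334), against 0.253% of the other autosomal windows. The 31 windows were spread over 15 autosomes, with 5 on chromosome 9 and 4 on chromosome 3, each of which has 30 of the 543 proximal windows. Their median soft-masked share was 55.7%, against 36.9% over all proximal windows. No protein-coding gene was present in 21 of them, and in 185 of all 543 proximal windows. Of the 31, 10 lay in the first 0.5 Mb, as did 89 of all 543 proximal windows.

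The largest difference, 0.206, was found on chromosome 9 from 5.3 to 5.4 Mb, where the inflammatory caspase genes *Casp1*, *Casp4* and *Casp12* lie. The level of this window was 0.827 for WT (95% interval 0.796 to 0.853), 0.621 for Pld6 KO (0.591 to 0.650) and 0.146 for Dnmt3L KO (0.114 to 0.186). The gene-free window of chromosome 3 from 4.9 to 5 Mb had 0.707, 0.530 and 0.052. The 2 windows with a level at least 0.1 higher in Pld6 KO were that of *Ehbp1l1* and *Ltbp3* on chromosome 19 from 5.7 to 5.8 Mb, with 0.482 in WT and 0.604 in Pld6 KO, and that of *Asxl2* and *Kif3c* on chromosome 12 from 3.4 to 3.5 Mb, with 0.613 and 0.715.

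Copies of the L1Md_A promoter, the 5′ region of an active LINE-1 retrotransposon, were located by sequence match, since this element is a known target of the piRNA pathway. Matches that covered 90% or more of the sequence amplified in the study, with 90% or more identity, lay in 41 of 543 proximal windows (7.55%) and in 7.24% of the other windows. Calls inside the 83 proximal copies gave a level of 0.802 in WT, with a 95% interval of 0.756 to 0.842 from 329 calls. Pld6 KO had 0.297 (0.260 to 0.337, 538 calls) and Dnmt3L KO 0.149 (0.107 to 0.205, 201 calls). In the 4179 copies of other windows the levels were 0.872, 0.218 and 0.0847. By pooled levels, the proximal copies were lower in WT and higher in both knockouts. The intervals of proximal and other copies did not overlap in any library. They count calls as independent, however, and cover no spread between copies or animals, so that a few copies may carry the difference. Proximal windows with such a copy had a median WT minus Pld6 KO difference of 0.0385, and those without one a median of -0.000286. In the other autosomal windows these medians were 0.0275 and -0.00508, so that the contrast was not particular to the chromosome ends. The median soft-masked share was 52.4% in proximal windows with a copy and 35.4% in those without, and its part in the contrast was not tested.

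Other elements were present in smaller numbers. The 53 proximal copies of the IAP long terminal repeat IAPLTR1_MM had 0.774 for WT, 0.549 for Pld6 KO and 0.143 for Dnmt3L KO, from 62, 122 and 49 calls, against 0.853, 0.679 and 0.253 in 1327 other copies. For the ETn repeat RLTRETN_Mm, 23 proximal copies had 0.863, 0.476 and 0.237, against 0.786, 0.391 and 0.124 in 314 other copies. MT2-MERVL, the long terminal repeat of the MERVL virus-like element, had 0.819, 0.774 and 0.148 in 46 proximal copies, against 0.833, 0.801 and 0.305 in 1650 others. Proximal copies were thus higher than the others for the ETn repeat and lower for the IAP repeat in each library, by point values. Dnmt3L KO was the lowest library for each of these elements, and Pld6 KO came nearest to it at L1Md_A.

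Chromosome 9 begins with a tandem repeat. Over its first 38 kb, 71.2% of the bases equalled the base 234 positions further on, against a median of 31.3% at other spacings. This spacing is the known unit length of the mouse major satellite, the main DNA of pericentromeric heterochromatin, but no reference copy of that satellite was at hand to compare the sequence with. Matches to 90% or more of the printed unit, with 80% or more identity, numbered 206 in this stretch. WT had 140485 calls in the stretch, Pld6 KO 182744 and Dnmt3L KO 69445, that is 0.321%, 0.285% and 0.36% of all calls of the libraries.

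The repeat was less methylated in each library than the like-density windows of its whole 100-kb window, whose medians were 0.754, 0.768 and 0.367. Those were matched to the CpG density of the whole window, 11.73 sites per kb. The repeat alone, with 775 sites in 38268 bases, is denser and was not matched. Its level was 0.392 for WT (95% interval 0.389 to 0.394), 0.430 for Pld6 KO (0.427 to 0.432) and 0.138 for Dnmt3L KO (0.135 to 0.141). The 3 sites with the most calls, all within the printed unit, had levels of 0.526, 0.482 and 0.357 in WT, 0.545, 0.519 and 0.350 in Pld6 KO, and 0.250, 0.193 and 0.0667 in Dnmt3L KO. Without them the stretch had 0.347, 0.387 and 0.118. The remainder of this first window, with 694 calls in WT, had 0.497, 0.468 and 0.111.

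Single CpG sites of the repeat differed widely from one another, and the libraries ranked them alike. At the 81 sites with at least 100 calls in each library, WT levels ran from 0.131 to 0.597, Pld6 KO levels from 0.127 to 0.710 and Dnmt3L KO levels from 0.00556 to 0.281. Dnmt3L KO was the lowest library at 81 of these sites, and Pld6 KO was above WT at 65. Across the 81 sites the Pearson correlation with WT was 0.886 for Pld6 KO and 0.872 for Dnmt3L KO. The sites belong to copies of 1 unit, so that they are not independent, and a read of 1 copy may have been placed in another.

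**Figure D4:**
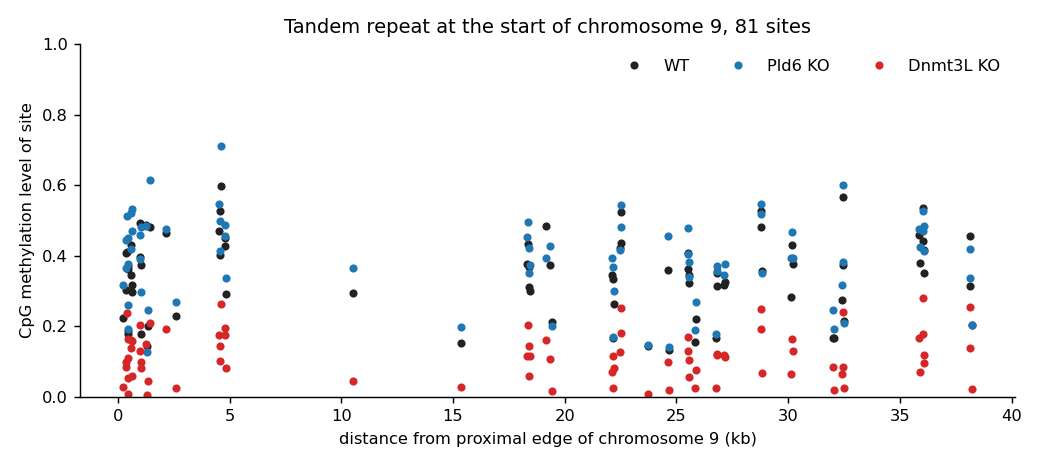
Methylation level of 81 CpG sites with at least 100 calls in each library in the tandem repeat at the start of chromosome 9, against the distance in kb from the proximal edge. Each site has 1 point for WT, Pld6 KO and Dnmt3L KO. Dnmt3L KO is lowest at all 81 sites, with a median of 0.114, against 0.357 in WT and 0.393 in Pld6 KO.

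Shorter stretches that matched the unit were found at 4 other chromosome ends. On chromosome 11 a stretch of 4760 bases directly at the first sequenced base, with 71.1% to 82.1% identity to the unit, had levels of 0.366 for WT, 0.351 for Pld6 KO and 0.116 for Dnmt3L KO. On chromosome 4, 1692 bases about 89.5 kb from the edge had 0.243, 0.216 and 0.0485. The chromosome 12 stretch printed above, which matched the unit with up to 94.3% identity, had 0.332 for WT (1217 calls, 95% interval 0.306 to 0.359), 0.407 for Pld6 KO (0.387 to 0.427) and 0.162 for Dnmt3L KO (0.135 to 0.192). A short match on chromosome 18 had 10 calls in WT. Chromosome 9 supplied 140487 of the 142542 WT calls in the 5 proximal stretches. Of 21 matching stretches elsewhere on the autosomes, 3 with many calls had 0.409, 0.453 and 0.142 (chromosome 2, from 98666545), 0.3002, 0.320 and 0.0968 (chromosome 9, from 35305216), and 0.353, 0.407 and 0.118 (chromosome 14, from 19415673) in WT, Pld6 KO and Dnmt3L KO. Another on chromosome 2, from 98662232, had 0.359, 0.380 and 0.143 from 615710 WT calls. Pooled, the 21 stretches had 0.381, 0.418 and 0.136, near the 0.391, 0.429 and 0.138 of the 5 proximal stretches. These levels were thus not particular to the chromosome ends. Single stretches elsewhere ran from 0.148 to 1 in WT, the latter from 3 or 4 calls.

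The CpG-dense stretches of chromosomes 3, 6 and 2 were nearly unmethylated in WT already. The chromosome 3 stretch had 0.058 for WT (3983 calls, 95% interval 0.0512 to 0.0657), 0.0987 for Pld6 KO (0.0912 to 0.107) and 0.0343 for Dnmt3L KO (0.0256 to 0.0459). It held most of the calls of its window, whose WT level of 0.163 differed from that of like-density windows by -0.615. The chromosome 6 stretch had 0.102, 0.066 and 0.0172, and it matched *Rn18s-rs5*, an annotated copy related to 18S ribosomal RNA, with 96.1% identity over 257 bases. The chromosome 2 stretch, in *Camk1d*, had 0.0574, 0.132 and 0.0293. Calls at sites with at least 21 calls made up 16% of the proximal calls of WT, 14.8% of those of Pld6 KO and 16.7% of those of Dnmt3L KO, against 6.25%, 5.66% and 5.59% elsewhere. Most of them came from the first window of chromosome 9, with 141179 WT calls, 98.6% of them at such sites. In the proximal windows after the first of each autosome the shares were 1.14%, 1.25% and 0.97%. When the 9 windows with at least 20% of their WT calls at such sites were left out, the median differences from like-density windows were -0.0434, -0.0486 and -0.0246.

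In chromosome 11 the first measured window, from 3.1 to 3.2 Mb, lies in *Sfi1*, a centrosomal protein gene, and held 14442 calls in WT, 84% of them at sites with at least 21 calls. Its level was 0.590 for WT (95% interval 0.582 to 0.598), 0.469 for Pld6 KO (0.462 to 0.476) and 0.168 for Dnmt3L KO (0.159 to 0.177). Of these calls, 7871 fell in 1 stretch from 3189903 to 3195654, which had 0.643, 0.448 and 0.154. Here WT and Pld6 KO stood further apart than in most proximal windows.

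The start of chromosome 14 could hardly be measured. Of its 30 windows, 22 had too few calls, and these made up most of the 27 proximal windows that were left out. The proximal end of chromosome 14 had 0.249 WT calls per CpG site, against 1.9 in the rest of the chromosome, and 63.1% of its bases were soft-masked in the median window, against 32.6%. The authors used uniquely mapped reads, and the genes annotated here are mostly numbered predicted genes of the Gm series. The 8 windows that could be measured had median levels of 0.631 for WT, 0.548 for Pld6 KO and 0.0961 for Dnmt3L KO. The other 5 windows left out were 2 on chromosome 7, 1 on chromosome 16, and the first windows of chromosomes 10 and 11, which contain no sequenced base.

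Promoters at the chromosome ends had median levels near those elsewhere. The promoter of a protein-coding gene was taken as the 2 kb before and the 0.5 kb after its RefSeq start. Of 606 such promoters in the proximal 3 Mb, 525 had at least 10 calls in each library. Their median level was 0.126 for WT, 0.151 for Pld6 KO and 0.0345 for Dnmt3L KO, against 0.132, 0.160 and 0.0417 in 17530 promoters elsewhere. In WT 65.3% of them were under 0.2, against 60.6% elsewhere, and 18.1% were above 0.6, against 22.9%. The level fell short of the WT level by at least 0.3 in Dnmt3L KO at 105 of the 525 (20%), against 24.3% of all promoters, and in Pld6 KO at 3 (0.571%), against 0.321%. It exceeded the WT level by at least 0.3 in Pld6 KO at 2 (0.381%), against 0.41%. The latter were *Casp1* and *Bbs1*, a gene of the primary cilium, and the 3 others were *Gm52720*, *Gm9602* and *C7*, a complement gene, all named here after their values were seen.

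Of 28 genes at these ends that were picked by name for their known function, 27 had a promoter with enough calls, and 19 of those promoters were under 0.2 in WT. At *Dnmt3a*, the gene of the *de novo* methyltransferase that works with DNMT3L, which spans chr12:3801559-3914443 on the plus strand, the promoter had 0.867 for WT (45 calls, 95% interval 0.738 to 0.937), 0.932 for Pld6 KO (0.818 to 0.977) and 0.143 for Dnmt3L KO (14 calls, 0.0401 to 0.399). *Lif*, which encodes a cytokine of the interleukin-6 family, had 0.959, 0.962 and 0.481. These were the 2 listed promoters with a level at least 0.3 lower in Dnmt3L KO than in WT.

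**Figure D5:**
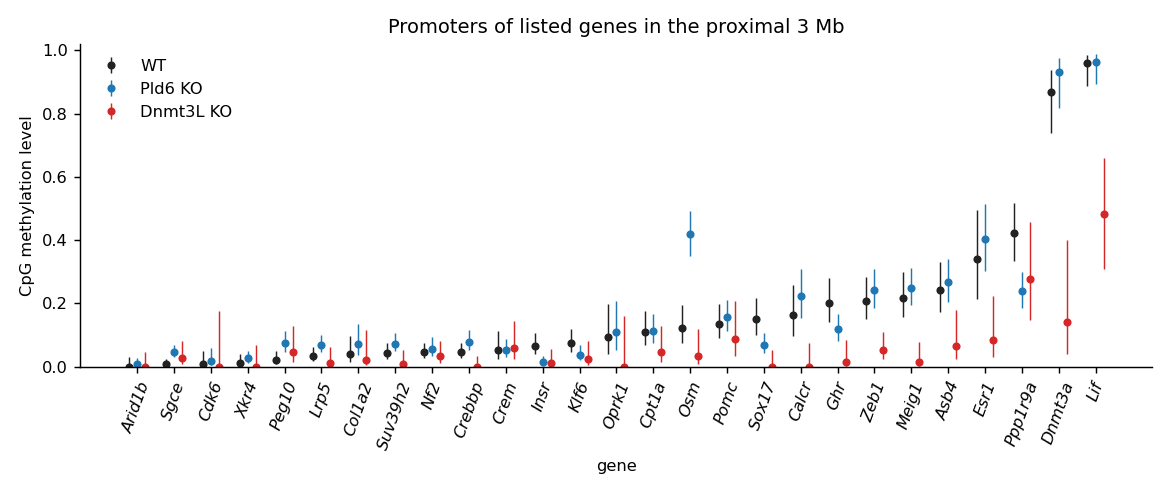
Promoter methylation level of 27 named genes in the proximal 3 Mb in WT, Pld6 KO and Dnmt3L KO (points, with 95% Wilson intervals of counting error), ordered by the WT level. Most promoters are under 0.2 in each library, *Dnmt3a* and *Lif* are high in WT and Pld6 KO, and *Osm* is higher in Pld6 KO (0.419) than in WT (0.122).

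At *Osm*, the gene next to *Lif* that encodes the related cytokine oncostatin M, the promoter had 0.122 for WT (115 calls, 95% interval 0.0739 to 0.194), 0.419 for Pld6 KO (0.349 to 0.492) and 0.0351 for Dnmt3L KO (0.00968 to 0.119). The *Casp1* promoter likewise had 0.171 for WT, 0.578 for Pld6 KO and 0.0417 for Dnmt3L KO. The window from 5.3 to 5.4 Mb, which overlaps this gene, went the other way. Its difference of WT from Pld6 KO, 0.206, was the largest among the proximal windows. *Ppp1r9a*, which encodes a neuronal actin-binding protein, went the other way with 0.423 in WT (0.336 to 0.516) and 0.238 in Pld6 KO (210 calls). The counts of promoters past 0.3 in either direction, given above, were near the background.

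Of the other listed promoters, *Esr1*, the oestrogen receptor gene, had 0.341 in WT from 41 calls, 0.405 for Pld6 KO and 0.0857 for Dnmt3L KO, and *Asb4*, *Meig1*, *Zeb1* and *Ghr* had between 0.202 and 0.243 in WT. The remaining ones were under 0.2 in WT. *Suv39h2*, which encodes a histone H3 lysine methyltransferase of pericentromeric heterochromatin, had 0.0425 for WT, 0.0721 for Pld6 KO and 0.00962 for Dnmt3L KO. *Sox17*, a transcription factor gene of endoderm and early germ cells, had 0.151, 0.0691 and 0, and 0 of 71 calls in Dnmt3L KO leave an upper 95% Wilson bound of 0.0513. The imprinted *Peg10* and *Sgce*, which share a start region that is methylated on the maternal copy, had 0.021 and 0.00838 in WT. Within 500 bp of the *Peg10* start the level was 0.0154 for WT, 0.0699 for Pld6 KO and 0.0556 for Dnmt3L KO.

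Gene bodies were mostly higher than promoters, and their levels in Dnmt3L KO varied. The body of *Arid1b* had 0.809 for WT, 0.827 for Pld6 KO and 0.471 for Dnmt3L KO. That of *Lrp5* had 0.854, 0.846 and 0.591, and that of *Dnmt3a* 0.720, 0.712 and 0.426. *Rp1*, a photoreceptor gene, was lower in Dnmt3L KO, with 0.766, 0.758 and 0.198. *Xkr4*, near the start of chromosome 1, had 0.731, 0.712 and 0.190. The body of *Sox17* was at 0.0216, 0.0372 and 0.00625.

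Gene families are clustered at some of these ends. The *Akr1c* family of aldo-keto reductases, which interconvert steroids, has 8 genes on proximal chromosome 13. Their pooled bodies had 0.779 for WT (1350 calls, 95% interval 0.756 to 0.801), 0.747 for Pld6 KO (0.727 to 0.765) and 0.134 for Dnmt3L KO (0.110 to 0.162). The 13 *Vmn1r* genes, vomeronasal receptors for pheromones, on chromosomes 4, 7 and 18 had 0.520 for WT (0.433 to 0.605), 0.458 for Pld6 KO and 0.0769 for Dnmt3L KO, against 0.722, 0.730 and 0.149 for the 216 members elsewhere. Their lower WT level rests on 127 calls. The 1 *Vmn2r* gene, *Vmn2r28*, had 0.569, 0.348 and 0.0455 from 72, 66 and 22 calls.

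Among the other families, the 12 proximal zinc finger genes of the *Zfp* series had 0.362 for WT (95% interval 0.350 to 0.374), 0.420 for Pld6 KO (0.409 to 0.430) and 0.180 for Dnmt3L KO (0.166 to 0.194), against 0.652, 0.685 and 0.326 for the 379 elsewhere. The 2 *Nlrp* genes of innate immunity, *Nlrp2* and *Nlrp12*, had 0.620, 0.606 and 0.189. The 3 caspase genes of chromosome 9 had 0.796 for WT, 0.751 for Pld6 KO and 0.166 for Dnmt3L KO, against 0.746, 0.743 and 0.442 for 8 caspase genes elsewhere. The 2 olfactory receptor genes of chromosome 16, *Olfr15* and *Olfr161*, had 0.171, 0.147 and 0, from 70, 75 and 39 calls, and the upper 95% Wilson bound in Dnmt3L KO was 0.0897. No member of the *Mrgpr*, *Speer*, *Mmp* or *Serpin* families overlapped these ends. Each family sits on 1 or a few chromosomes, so that its values cannot be told apart from those of the place where it lies.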

How the data were processed

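Spermatogonial DNA was sequenced after post-bisulfite adaptor tagging, as single-end reads of 100 bp. The authors trimmed the reads and aligned them to unique regions of mm10 with Bismark (submitters' processing notes, version not given). The deposited files list CpG sites with their methylated and unmethylated counts, which were used here, and the methylated fraction that the authors derived from them, which was not. Calls were pooled in windows of 100 kb with Python 3.11.15, numpy 2.4.6, pandas 2.3.3 and scipy 1.17.1, plotted with matplotlib 3.10.9, and sequences were matched with BLAST 2.17.0. For retrotransposons, the amplified sequences that the study lists were used with converted bases put back. Wilson 95% intervals were computed per window. With 1 library per genotype, no test between genotypes was made. A difference of 0.3 was taken from the study's threshold, and 0.1 was chosen here. The windows named were the first of each autosome and the 5 highest and 5 lowest for the difference of WT from each knockout, for the Dnmt3L KO level and for WT against like-density windows, with their genes, 11 gene families and 28 genes picked by name. Windows, gene lists and families were chosen with earlier results of these data known. The computation was tested on simulated data.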

Additional observations from a re-analysis of the deposited data

How the results depend on the processing

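Of 105 values, from 7 results under 15 alternatives (11 planned and 4 chosen after seeing the data), 11 moved and 1 reversed. The other 93 stayed close to the reported one, but 10 of these are counts that use no comparison windows and could not change, which leaves 83 of 95. Close meant within the 95% interval of the reported median over windows, or for a count within a factor of 1.5. Alternatives that only left out a few windows could not move the count of 471 past this factor. Matching the soft-masked share within 5 percentage points as well as CpG density, chosen after seeing the data, gave median differences from comparison windows of -0.0167 in WT and -0.0157 in Pld6 KO, and turned the Dnmt3L KO value to 0.0014. Without promoter sites, WT was at -0.0275, Pld6 KO at -0.0314, WT minus Dnmt3L KO at -0.0042 and WT minus Pld6 KO at 0.0065. The mean of site levels put WT minus Pld6 KO at 0.0062. With at least 500 calls, 334 windows were left, 266 with WT minus Dnmt3L KO of at least 0.3 and 5 with WT minus Pld6 KO of at least 0.1 (79.6% and 1.5%, against 84.7% and 0.253% of other windows). Among 1078 windows of 50 kb these counts were 919 and 84 (85.3% and 7.79%, against 88.2% and 4.76%). The cause of these shifts was not tested, except that the counts follow the number of windows in part. No paired analysis was possible because each genotype had 1 library. Depth limits single windows most in Dnmt3L KO, the library with the fewest calls.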
